A study of Mus musculus with 8 samples.

Results

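Retinoic acid is the active form of vitamin A, and 9 mouse genes that make it, carry it, break it down or receive it were followed here in scars of large skin wounds. They were named by symbol: Rdh10, Dhrs9, Dhrs3, Aldh1a1, Aldh1a2, Aldh1a3, Crabp2, Cyp26b1 and Rarb. Of the 9, 8 have array rows that the platform annotation pairs with a single symbol, and these 8 are described among 20259 genes tested. Rarb, a retinoic acid receptor, lies only on a row that carries 6 gene symbols, so no level is given for it. The 8 genes rest on 11 rows, with 2 for Rdh10, 3 for Dhrs3 and 1 for each of the others.

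The study is about wound-induced hair neogenesis, in which adult mice grow new follicles inside the scar of a large wound. Scar tissue was taken as whole skin at an early stage and hybridised to Affymetrix Exon arrays, with 4 arrays from a strain of high regeneration and 4 from a strain of low regeneration. The design text counts 4 mice to each strain. The sources used here give no strain name, genotype, age or day of biopsy, and strain and regeneration level cannot be told apart in this design. The comparison asks which of the retinoid genes differ between scars that go on to regenerate follicles to different degrees. All levels are log2 values as deposited, and levels of different genes were not compared with each other because each gene has its own probes.

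Retinol from the blood is oxidised to retinaldehyde and then to retinoic acid, and the reaction back to retinol and the breakdown of retinoic acid keep the amount in a cell within bounds. Retinoic acid enters the nucleus on a carrier and acts through paired receptors that sit on DNA at repeats of a short half-site. In skin it is known for its effects on epidermal differentiation, on sebaceous glands and on the hair cycle, and published work on this wound model has concerned retinoic acid synthesis.

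The repeats are shown first because the pathway is known to feed back through such letters on some of its own genes. Windows of 250 bases before and 50 bases after the start of a gene were taken from RefSeq (GRCm38.p6) and matched by symbol. They cover 6 of the 9 genes in 9 windows, namely Dhrs9, Dhrs3, Cyp26b1, Aldh1a2, Rarb and Aldh1a1. Each window was searched on both strands for 2 half-sites in the same direction with 1, 2 or 5 bases between them. A half-site could be AGGTCA, the textbook form for these receptors, or any of its near relatives, that is AGTTCA as known from published target genes, or GGTTCA as the first part of the Rarb pair printed below, or else GGGTCA, and no match overlapped another. The Rarb pair is a textbook site that was known when these forms were chosen, so its match was fixed by the choice and is shown as a description. With 5 bases between, 0.0974% of all 32851 windows hold such a pair, with 1 base 0.222% and with 2 bases 0.268%. The other 8 windows of the 9 genes held no pair, and that of Rarb held its known pair, with 5 bases between the half-sites. Among 69 windows of 50 other retinoid genes, Cyp26a1, which breaks down retinoic acid, held a pair with 5 bases between and Bco1, which cleaves carotenoids, a pair with 1 base between. Both half-sites of the Cyp26a1 pair are AGTTCA, the form allowed because published target genes carry it. Its match is therefore also shown as a description and not as a find of the search. The Rarb and Cyp26a1 windows are printed 5′ to 3′ on the strand of the gene, with the pair and the bases between it in capitals. Counted from the start of the gene, the Rarb pair lies at -53 to -37, and the Cyp26a1 pair, which reads on the opposite strand, at -32 to -16.
Rarb, chr14:16575427-16575726, minus strand: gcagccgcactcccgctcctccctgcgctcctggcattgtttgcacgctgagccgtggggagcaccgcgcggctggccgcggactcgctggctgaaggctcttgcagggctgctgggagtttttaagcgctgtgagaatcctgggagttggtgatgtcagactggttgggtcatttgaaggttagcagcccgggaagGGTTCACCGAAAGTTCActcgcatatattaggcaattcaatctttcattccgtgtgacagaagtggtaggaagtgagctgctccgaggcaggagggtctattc
Cyp26a1, chr19:37697558-37697857, plus strand: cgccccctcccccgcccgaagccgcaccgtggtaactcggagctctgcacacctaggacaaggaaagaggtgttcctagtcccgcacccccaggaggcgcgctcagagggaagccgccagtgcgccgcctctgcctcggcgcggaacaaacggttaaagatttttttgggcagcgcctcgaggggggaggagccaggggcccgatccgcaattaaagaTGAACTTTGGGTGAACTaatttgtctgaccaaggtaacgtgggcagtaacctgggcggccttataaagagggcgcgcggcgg
A match describes the letters only and shows no binding. Rarb has no level of its own on the arrays, and Cyp26a1 has. It lay at 6.32, 6.10, 6.18 and 6.01 in the high-regeneration scars, against 6.15, 5.98, 5.91 and 5.94 in the low-regeneration scars. These levels lie near or below the array medians of 6.09 to 6.29, where values can hold background, and both filters on level removed Cyp26a1. The groups overlap, and the difference of 0.15 ± 0.08 (SE) did not pass the test (limma, adjusted p = 0.315).

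Several arrays stood apart in ways that touch the results below. A list of 18 measured skeletal muscle genes had a mean level of 6.72 to 6.91 in the high-regeneration scars, against 6.85, 6.78, 9.45 and 10.16 in low-regeneration scars 1 to 4. A list of 10 measured adipocyte genes ran from 6.62 to 6.82 in the high-regeneration scars, against 6.87, 7.11, 8.09 and 8.20. Eif2s3y, a Y-linked gene, was at 7.70 in high 4 and at 7.67 and 7.57 in low 2 and low 4, against 4.08 to 4.76 on the remaining 5. Xist, made from the inactive X chromosome, was at 6.11 in high 4, at 9.60 in low 2 and at 10.05 in low 4, and at 12.74 to 12.93 elsewhere. Low 2 and low 4 thus carried signal of both sexes, and whether each of them holds RNA of 1 mouse is in doubt. Epidermal genes averaged 11.37 to 11.60 in the high-regeneration scars, against 11.21 to 11.54 (10 measured), and dermal fibroblast genes 10.08 to 10.24, against 10.21 to 10.45 (12 measured). In whole biopsies fewer cells of a type and less RNA per cell cannot be told apart.

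None of the 8 genes passed the test across all genes. High minus low regeneration was fitted with limma on all 20259 genes, and a gene was called at a Benjamini-Hochberg adjusted p under 0.05. This called 4.32% of all genes (1.86% higher and 2.47% lower) and 0 of the 8 retinoid genes. At an unadjusted p under 0.05 there were 3 of the 8, Aldh1a3, Aldh1a1 and Dhrs9, beside 21.8% of all genes. Differences were positive for 7 of the 8 and negative for Aldh1a1, beside 57.2% positive over all genes. Their median difference was 0.09 on the log2 scale, beside 0.03 over all genes. The groups did not overlap in 1 of the 8, Aldh1a3, beside 14.5% of all genes.

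**Figure D1:**
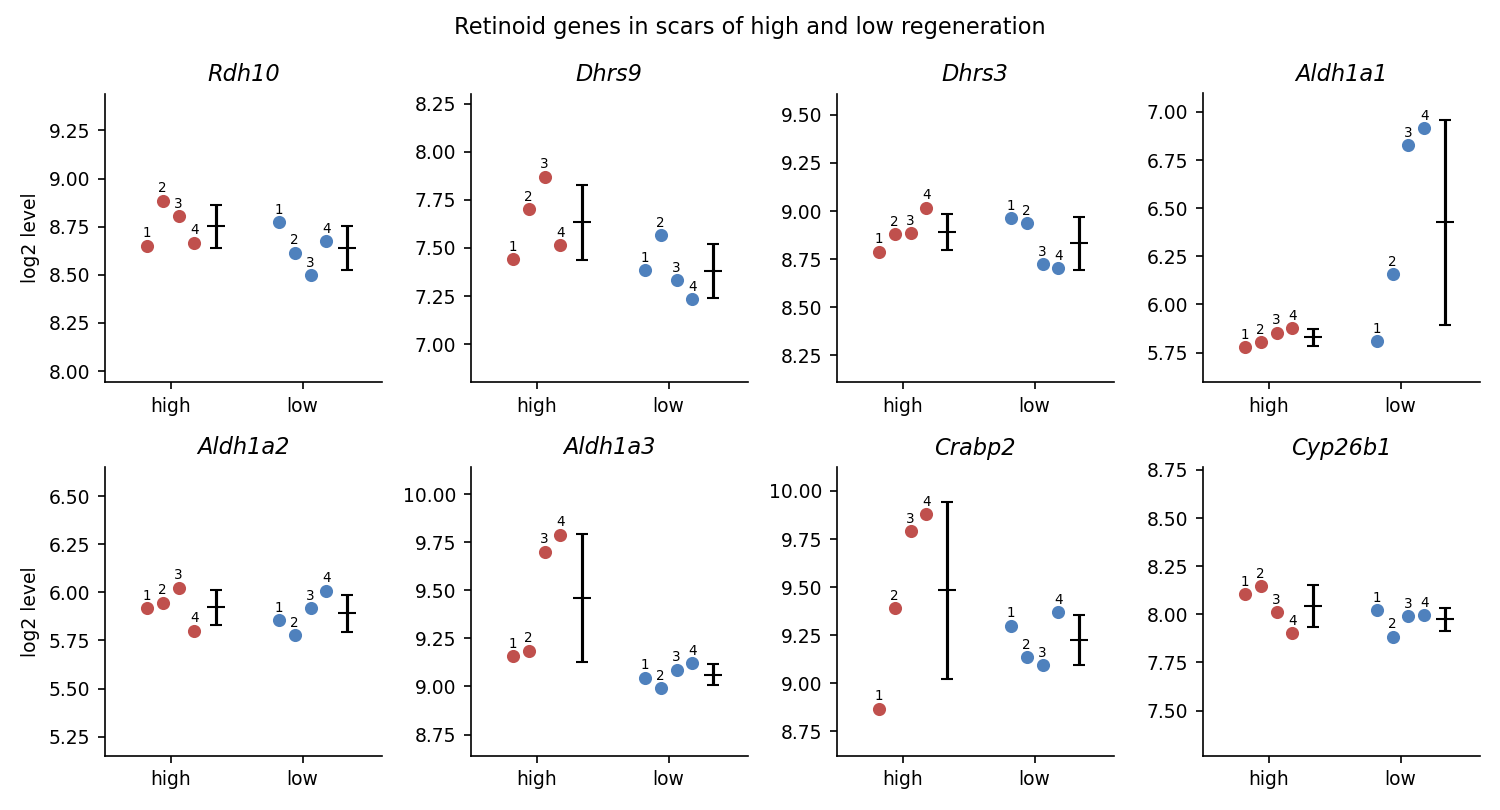
Log2 level of each of the 8 retinoid genes (vertical axes, each spanning 1.5 log2 units) in the high-regeneration (red, left) and low-regeneration (blue, right) scars, 1 point per array with its replicate number, and the mean with its SD in black (n = 4 each). The spread is wide in the low group for Aldh1a1 and in the high group for Aldh1a3 and Crabp2, and the groups overlap in every gene but Aldh1a3.

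The first oxidation step is carried by Rdh10, the retinol dehydrogenase that embryos depend on, and in epithelia also by Dhrs9. Rdh10 had levels of 8.65, 8.88, 8.80 and 8.67 in the high-regeneration scars, against 8.77, 8.62, 8.50 and 8.68 in the low-regeneration scars. The groups overlap, with high 1 and high 4 below low 4. The difference was 0.11 ± 0.08 (SE; 95% interval -0.07 to 0.29; adjusted p = 0.446). Its 2 rows differed in size, at 0.22 and 0.00034.

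Dhrs9 had levels of 7.44, 7.70, 7.87 and 7.51 in the high-regeneration scars, against 7.39, 7.57, 7.33 and 7.23 in the low-regeneration scars. High 2 and high 3 lay above all low-regeneration scars, and high 1 and high 4 lay below low 2. The difference was 0.25 ± 0.11 (SE; 95% interval 0.01 to 0.49, for this gene alone) and did not pass over all genes (limma, adjusted p = 0.217).

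Dhrs3 works against this step and reduces retinaldehyde back to retinol. It is also known as a gene that retinoic acid induces. Its levels were 8.79, 8.88, 8.88 and 9.02 in the high-regeneration scars, against 8.96, 8.94, 8.73 and 8.70 in the low-regeneration scars. The low group held 2 arrays near the top and 2 at the bottom of the whole range, so the groups overlap. The difference was 0.06 ± 0.08 (SE; 95% interval -0.13 to 0.25; adjusted p = 0.691), and the 3 rows gave 0.04, 0.11 and 0.03. Without low 3 and low 4, the arrays rich in muscle transcripts, it was -0.06.

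The second step, from retinaldehyde to retinoic acid, is carried out by the 3 Aldh1a enzymes. Their differences were not all of the same sign, but none was called and the enzymes were not tested against each other. Aldh1a3, known in hair follicles and other epithelia, had the largest positive difference of the 8 genes. Its levels were 9.16, 9.19, 9.70 and 9.79 in the high-regeneration scars, against 9.05, 8.99, 9.09 and 9.12 in the low-regeneration scars. Every high-regeneration scar lay above every low-regeneration scar, but high 1 was only 0.04 above the top of the low group, and the distance came from high 3 and high 4. The means were 9.46 ± 0.33 in high and 9.06 ± 0.06 in low regeneration (SD, n = 4 each), a 1.32-fold difference. The difference of 0.40 ± 0.14 (SE; 95% interval 0.07 to 0.72, for this gene alone) did not pass over all genes (limma, adjusted p = 0.159). In the 14 alternatives that can move the difference (other normalizations, array weights, arrays left out) it was positive, from 0.28 to 0.50, and its adjusted p over all 22 alternatives ran from 0.101 to 0.550.

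Aldh1a1 had the only negative difference. It had levels of 5.78, 5.80, 5.85 and 5.88 in the high-regeneration scars, against 5.81, 6.16, 6.83 and 6.91 in the low-regeneration scars. The high group was tight, low 1 lay inside it, and low 3 and low 4 stood about 1 log2 unit above it. The means were 5.83 ± 0.05 in high and 6.43 ± 0.53 in low regeneration (SD, n = 4 each). The high-regeneration levels lie below the array medians and can hold background, so no fold is given. The difference of -0.60 ± 0.22 (SE; 95% interval -1.10 to -0.10, for this gene alone) did not pass over all genes (limma, adjusted p = 0.162). Without low 1 it was -0.81 and passed (adjusted p = 0.0339), and without low 3 and low 4 it was -0.15 (adjusted p = 0.523).

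Low 3 and low 4 were also the highest arrays for fat and muscle markers, and the adipocyte list had the same order of the 4 low-regeneration scars as Aldh1a1. Among 17574 other genes, leaving out predicted models, the 3 whose deviations from their own means differed least from those of Aldh1a1 over the 8 arrays were Acvr1c, Fabp4 and Plin4. The mean absolute difference was 0.05, 0.09 and 0.10 on the log2 scale, against a median of 0.40 over the genes compared. Acvr1c is an activin-type receptor of fat tissue, Fabp4 the fatty acid carrier of fat cells and Plin4 a coat protein of lipid droplets. All of them are on the adipocyte list, and they were looked up for Aldh1a1 after its values were seen. Of the 10 measured adipocyte genes 0 were called by limma (8 at an unadjusted p under 0.05) and 0 had a positive difference, at a median of -0.62. Of the 18 measured muscle genes 0 were called (4 at an unadjusted p under 0.05) and 0 had a positive difference, at a median of -1.53. Their part in the Aldh1a1 result was not tested.

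Aldh1a7, a close paralog of Aldh1a1 in the mouse, showed a like pattern, and it was chosen after its values were seen. Its levels were 5.49, 5.67, 5.54 and 5.64 in the high-regeneration scars, against 5.68, 5.71, 6.82 and 6.45 in the low-regeneration scars. All but those of low 3 and low 4 lie below the array medians, where values can hold background, and both filters on level removed Aldh1a7. Low 3 and low 4 were again the arrays that stood out. The difference was -0.58 ± 0.23 (SE; adjusted p = 0.194), and -0.11 without low 3 and low 4. Near-identical paralogs can share probe signal, so how much of each level belongs to which of the genes is uncertain.

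**Figure D2:**
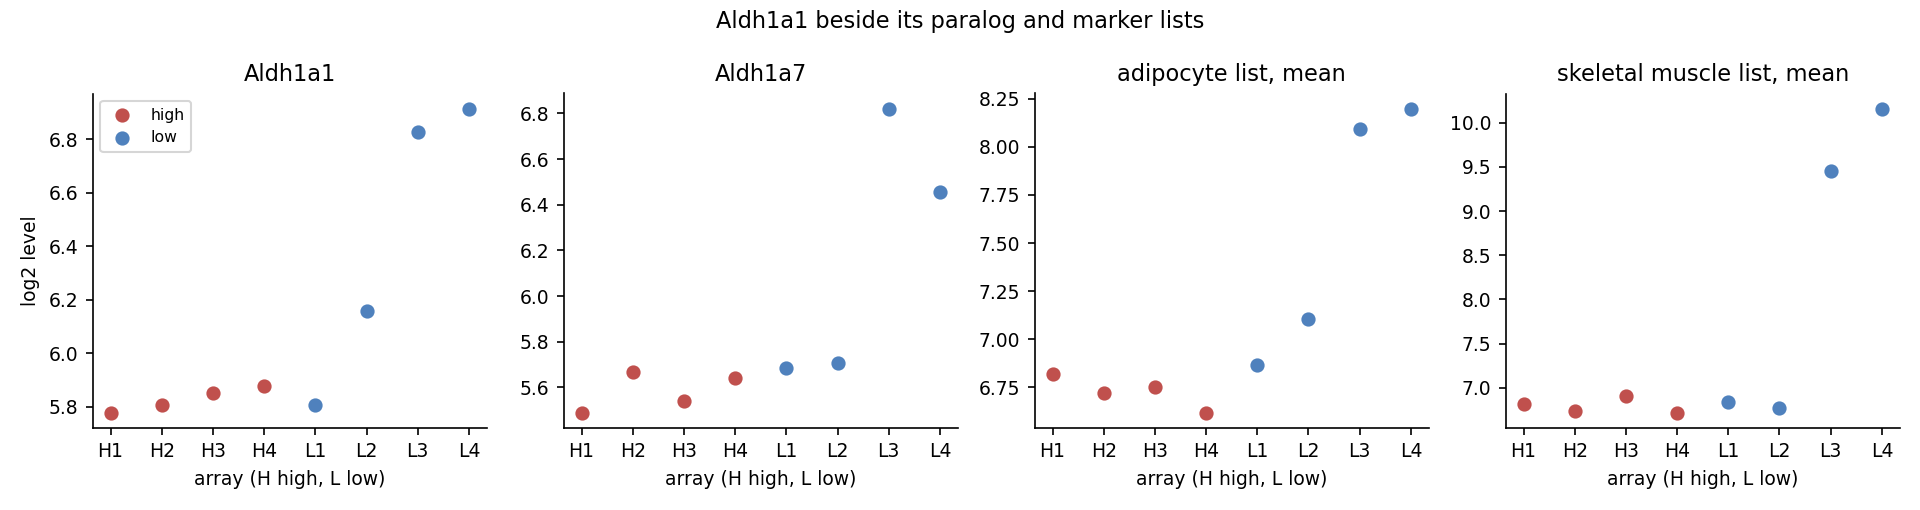
Log2 level (vertical axes, each on its own scale) of Aldh1a1, of its paralog Aldh1a7, and the mean level of the adipocyte and skeletal muscle lists in each array, with high-regeneration scars in red (H1 to H4) and low-regeneration scars in blue (L1 to L4). L3 and L4 stand above all other arrays in the 4 panels.

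Aldh1a2 is the main retinoic acid enzyme of mesenchyme in embryos. Its levels were 5.92, 5.95, 6.02 and 5.80 in the high-regeneration scars, against 5.85, 5.78, 5.92 and 6.01 in the low-regeneration scars. The groups overlap across nearly the whole range. The difference was 0.03 ± 0.07 (SE; 95% interval -0.13 to 0.20; adjusted p = 0.820), and its sign changed under quantile normalization, median centring and cyclic loess. These levels lie below the array medians of 6.09 to 6.29, where values can hold background, and no detection calls were used.

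Retinoic acid is handed to its nuclear receptors by Crabp2, a binding protein of the cytosol. Crabp2 had levels of 8.87, 9.39, 9.79 and 9.88 in the high-regeneration scars, against 9.30, 9.14, 9.09 and 9.37 in the low-regeneration scars. High 1 was the lowest of all 8 arrays and high 3 and high 4 were the highest. The means were 9.48 ± 0.46 in high and 9.22 ± 0.13 in low regeneration (SD, n = 4 each). The difference was 0.26 ± 0.20 (SE; 95% interval -0.19 to 0.71; adjusted p = 0.468), and it was 0.46 without high 1 and 0.13 without high 4.

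Aldh1a3 and Crabp2 thus shared their 2 highest arrays, high 3 and high 4. High 4, the highest for both, was also the high-regeneration array with Y-linked signal. Without the arrays carrying that signal (low 2, low 4 and high 4) the difference was 0.28 for Aldh1a3 (limma, adjusted p = 0.550). For Crabp2 it was 0.15 (adjusted p = 0.815). The part of sex in these levels was not tested. Ranked by likeness to Aldh1a3 over the 8 arrays, Crabp2 was number 57 of 17574 genes, at a mean absolute difference of 0.12 against a median of 0.25. This rank was looked up for Crabp2 by name and rests on the same 8 values, so it only describes them. The 3 genes most like Aldh1a3 were Ptprd, a receptor tyrosine phosphatase, Apoc2, an activator of lipoprotein lipase, and H19, an imprinted non-coding RNA. Their mean absolute differences were 0.06, 0.07 and 0.07. Of these H19 was called, at a difference of 0.49 (adjusted p = 0.0453), and Ptprd and Apoc2 were not (0.35 and 0.44).

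Follicle markers were lowest in the same 2 arrays, and so were dermal fibroblast genes. A list of 16 measured inner root sheath and hair shaft genes had mean levels of 9.03, 8.82, 8.12 and 8.33 in the high-regeneration scars, against 10.24, 10.79, 9.83 and 10.27 in the low-regeneration scars, and 14 of the 16 fell, beside 2.47% of all genes. A list of 10 measured melanocyte genes had 7.24, 7.16, 6.76 and 6.77, against 7.87, 8.17, 8.002 and 8.31, and 8 of the 10 fell. The list of bulge and outer root sheath genes, with 3 of 12 lower, had 9.42, 9.43, 9.17 and 9.24, against 9.76, 9.83, 9.75 and 9.76. The dermal fibroblast list was also lowest in high 3 and high 4, at 10.08 and 10.11, so this order was not particular to follicle markers. The sebaceous gland list was instead lowest in high 1, at 8.74, with high 3 next at 8.80. The part of these cell types in the Aldh1a3 and Crabp2 levels was not tested.

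**Figure D3:**
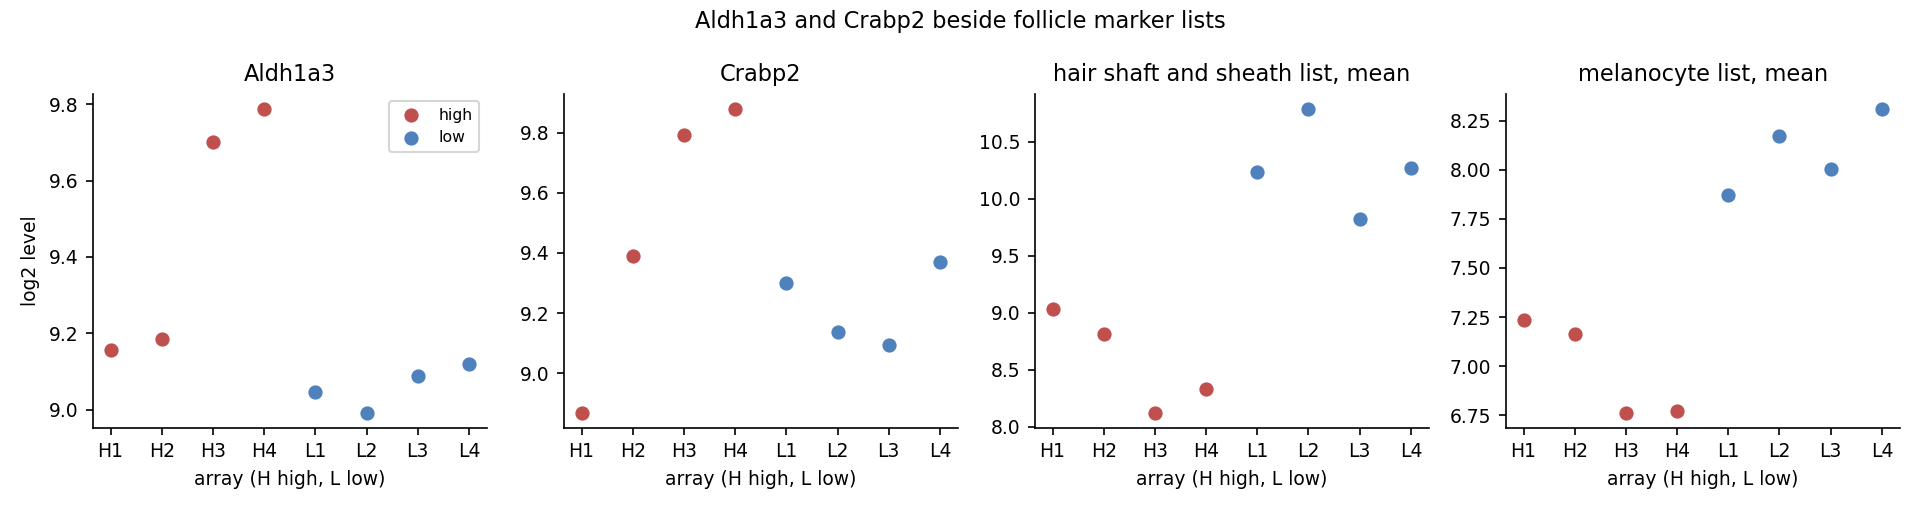
Log2 level (vertical axes, each on its own scale) of Aldh1a3 and Crabp2 and the mean level of the inner root sheath and hair shaft list and of the melanocyte list in each array, with high-regeneration scars in red (H1 to H4) and low-regeneration scars in blue (L1 to L4). H3 and H4 are the highest arrays for both retinoid genes and the lowest for both marker lists.

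Retinoic acid is broken down by the Cyp26 enzymes, of which Cyp26b1 is the form known from skin and hair follicles. Cyp26b1 had levels of 8.11, 8.15, 8.01 and 7.90 in the high-regeneration scars, against 8.02, 7.88, 7.99 and 7.997 in the low-regeneration scars. The 2 highest arrays were high 1 and high 2, those with the lower Aldh1a3 levels of their group, and high 4 lay near the bottom of the range. The difference was 0.07 ± 0.07 (SE; 95% interval -0.09 to 0.23; adjusted p = 0.593). It was 0.03 without high 2, 0.11 without high 4 and 0.0034 after median centring. Cyp26a1 is given above, and Cyp26c1, also of the family, averaged 6.96 in high and 6.79 in low regeneration, a difference of 0.17 ± 0.09 (SE; adjusted p = 0.313).

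**Figure D4:**
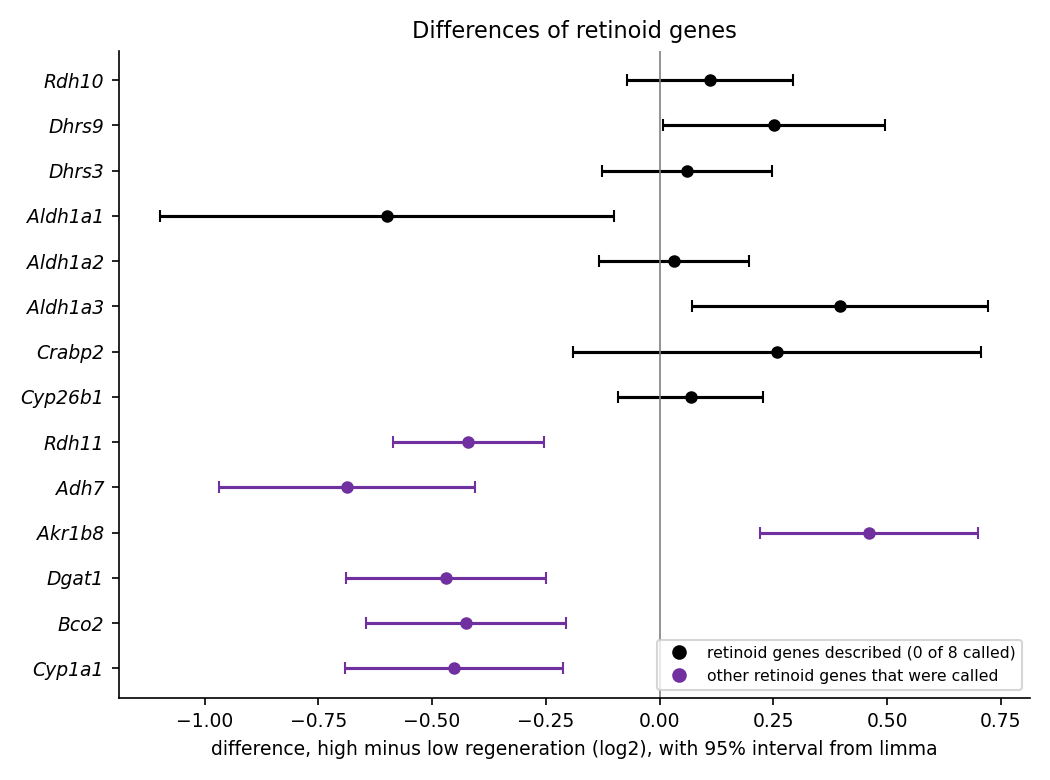
Difference in log2 level, high minus low regeneration (horizontal axis), with its 95% interval from limma for each gene alone, for the 8 retinoid genes (black) and for 6 other genes of retinoid metabolism that were called over all genes (purple). Of the 8, Dhrs9, Aldh1a1 and Aldh1a3 have intervals that leave out 0 without passing over all genes, and 5 of the 6 others lie below 0.

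Other genes of retinoid metabolism and response were read from 5 lists of 69 genes, of which 57 have a value and 4 of these stand on more than 1 list. Of these 1 rose and 5 fell in the high-regeneration scars, which is 10.5% called beside 4.32% of all genes, and their median difference was 0.0035. The lists of retinoid oxidation and reduction held 1 higher and 2 lower of 18, uptake and storage 2 lower of 11, and binding and breakdown 1 lower of 6. Of 11 receptors and cofactors and of 15 genes known to respond to retinoic acid 0 were called (limma), with 2 and 3 at an unadjusted p under 0.05, beside 21.8% of all genes, and the median differences were 0.01 and 0.11.

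Adh7, an alcohol dehydrogenase of epithelia that can oxidise retinol, fell most of these genes. Its levels were 8.55, 8.65, 8.16 and 8.28 in the high-regeneration scars, against 8.95, 9.03, 9.34 and 9.07 in the low-regeneration scars. The groups do not overlap, and the difference was -0.69 ± 0.12 (SE; adjusted p = 0.0206). Rdh11, which reduces retinaldehyde in many tissues, had 8.22, 8.32, 8.18 and 8.29, against 8.65, 8.85, 8.59 and 8.61 in low regeneration. It fell by 0.42 ± 0.07 (SE; adjusted p = 0.0177) with no overlap, and passed whichever single array was left out except high 3. Adh7 passed in 4 of the 8 cases in which 1 array was left out, those without high 1, high 2, low 1 or low 3. Since 874 of the 876 genes called have groups without overlap, the lack of overlap adds nothing to a call.

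Dgat1, which makes triglycerides and in skin also retinyl esters, averaged 9.37 ± 0.10 in high and 9.84 ± 0.18 in low regeneration (SD, n = 4 each) and fell by 0.47 ± 0.10 (SE; adjusted p = 0.0323). Bco2, which cleaves carotenoids away from their middle, averaged 5.70 ± 0.08 in high and 6.12 ± 0.19 in low regeneration (SD, n = 4 each) and fell by 0.43 ± 0.10 (SE; adjusted p = 0.0444). Its high-regeneration levels lie below the array medians, where values can hold background, and both filters on level removed it. Cyp1a1, a target of the aryl hydrocarbon receptor that can also oxidise retinoids, averaged 6.25 ± 0.14 in high and 6.70 ± 0.19 in low regeneration (SD, n = 4 each) and fell by 0.45 ± 0.11 (SE; adjusted p = 0.0484). The gene that rose was Akr1b8, an aldo-keto reductase whose human relatives reduce retinaldehyde. It averaged 7.96 ± 0.17 in high and 7.501 ± 0.16 in low regeneration (SD, n = 4 each), 0.46 ± 0.11 (SE) higher at an adjusted p of 0.0460. Each of these 4 passed in only 1 of the 8 cases in which an array was left out, Dgat1 and Akr1b8 without low 1 and Bco2 and Cyp1a1 without low 4. Akr1b8 also did not pass after median centring (adjusted p = 0.113) or cyclic loess (0.0560). Cyp1a1 just missed when each gene was read from its brightest row (limma, adjusted p = 0.0508) or its median row (0.0501). The high-regeneration levels of Cyp1a1 lie near the array medians, and the filter at the median level removed it. Without low 3 and low 4, where 1.6% of all genes were called, Rdh11 (adjusted p = 0.0408) and Cyp1a1 (0.0456) were the 2 of the 57 that passed.

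Sebaceous gland genes were lower as well, with 7 of 14 measured genes called lower, beside 2.47% of all genes, and mean levels of 8.74 to 9.14 in the high-regeneration scars, against 9.34 to 9.55 in the low-regeneration scars. The part of this gland in the lower Adh7, Rdh11 and Dgat1 levels was not tested.

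The 2 with the smallest p on the list of receptors and cofactors were Rxrg, a retinoid X receptor, at 7.19 ± 0.32 in high and 7.66 ± 0.26 in low regeneration, and Rere, a cofactor of retinoic acid signalling, at 7.60 ± 0.07 and 7.74 ± 0.07 (SD, n = 4 each). Their differences of -0.47 ± 0.17 and -0.14 ± 0.06 (SE) did not pass (adjusted p = 0.163 and 0.227). Among the genes known to respond to retinoic acid, Meis2, a homeobox factor, averaged 7.80 ± 0.20 in high and 7.39 ± 0.17 in low regeneration (SD, n = 4 each). Its groups did not overlap, and the difference of 0.41 ± 0.11 (SE) was not called (adjusted p = 0.0813). Ets1, a transcription factor, was at 8.42 ± 0.06 in high and 8.15 ± 0.14 in low regeneration (SD, n = 4 each), a difference of 0.26 ± 0.08 (SE) that was not called either (adjusted p = 0.0997). Fabp5, which carries retinoic acid to another nuclear receptor and was chosen after its values were seen, had levels of 10.74, 10.62, 11.18 and 11.02 in the high-regeneration scars, against 10.57, 10.52, 10.54 and 10.26 in the low-regeneration scars. High 3 and high 4 were again the highest, and the difference of 0.42 ± 0.13 (SE) did not pass (adjusted p = 0.101).

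Alternatives that can move a difference numbered 14 for the genes with 1 row and 16 for Rdh10 and Dhrs3, since the row summaries count there. In these Rdh10, Dhrs9, Aldh1a3, Crabp2 and Cyp26b1 stayed positive and Aldh1a1 negative, while Dhrs3 and Aldh1a2 changed sign in some.

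**Figure D5:**
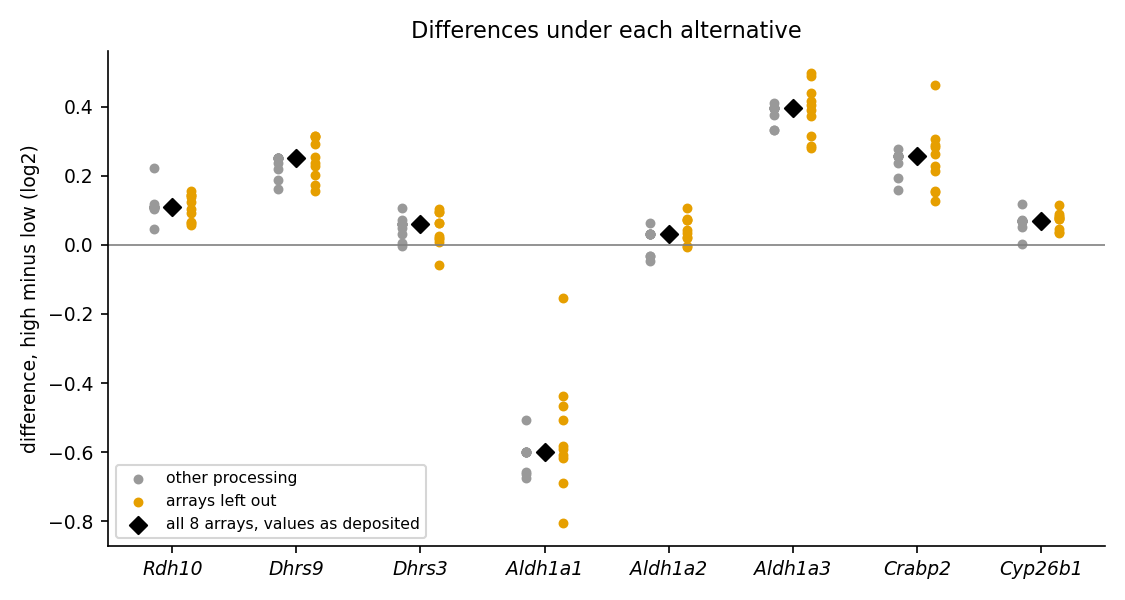
Difference in log2 level, high minus low regeneration (vertical axis), of each of the 8 retinoid genes with all arrays and the values as deposited (black diamonds), under other processing (grey) and with 1 or more arrays left out (orange). Aldh1a1 moves most, from -0.81 to -0.15, and Aldh1a3 stays between 0.28 and 0.50.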

How the data were processed

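The deposited values are log2 levels per transcript cluster of an exon array (115830 rows, 8 arrays). The submitters' processing notes name Affymetrix Expression Console and PLIER without versions; background correction and normalization: not given in the sources used here. Values ran from 2.10 to 14.92 with array medians of 6.09 to 6.29, and they were used without further normalization. Rows with 1 symbol in the platform annotation (25539) were averaged per gene on the log2 scale, and 2300 rows with several symbols were left out. No filter on low values was applied.

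High minus low regeneration was fitted over all 20259 genes with limma 3.58.1 under R 4.3.3 (lmFit, eBayes, two-sided) and adjusted by Benjamini-Hochberg. The table was read by data.table (version 1.17.8). The fit was tested on simulated data with normal noise drawn independently for each gene and array. That test does not cover differences in tissue or sex that many genes share on an array. With 4 arrays per group the number of arrays limits the precision.

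The 9 retinoid genes and the lists were chosen with earlier results of these data known. Named were all 9, every called gene of the other retinoid lists, the 2 with the smallest p of a list with none, and the 3 genes most like Aldh1a3, the one of them with the smallest p. Cyp26a1, Cyp26c1, Aldh1a7, Fabp5, Lpl, Retsat, the rank of Crabp2, the marker genes most like Aldh1a1 and the array checks are outside this rule. The alternatives were a replicate block, other normalizations, variance moderation, array weights, filters on level, other row summaries, a stricter threshold and leaving out arrays.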

Additional observations from a re-analysis of the deposited data

Results flagged for a closer look

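Among 36 group readings of 18 genes, 2 had an array far from the other 3 of its group by Dixon's test, where chance marks about 1 in 20. Dgat1 was at 9.57 in low 1, below the next array of its group at 9.92, and Bco2 was at 5.58 in high 2, below the next at 5.73.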

How the results depend on the processing

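Of 172 values of the 8 genes under 22 alternatives, 1 passed, Aldh1a1 without low 1 (-0.81), and 7 had the other sign. These were Aldh1a2 under quantile normalization and median centring (both -0.03), cyclic loess (-0.05), without high 3 (-0.0020) and without low 2 (-0.0052), and Dhrs3 under median centring (-0.0045) and without low 3 and low 4 (-0.06). Filters on level removed Aldh1a1 and Aldh1a2. No other of the 8 was called under any alternative, so 0 were higher throughout, and 0 to 1 were lower when single arrays were left out.
Over all genes, where 376 rose and 500 fell, 212 rose after median centring (26.3% of calls higher, against 42.9%; 31.7% after cyclic loess), 58 rose and 74 fell at an adjusted p under 0.01, 127 and 198 without low 3 and low 4, and 5 and 10 when the 3 arrays carrying Y-linked signal (low 2, low 4, high 4) were removed. Leaving out single arrays gave 129 to 536 higher and 163 to 669 lower genes, the fewest without high 3 and the most without low 1. Of the other retinoid genes, 1 higher and 5 lower, 0 were higher after median centring, cyclic loess, the stricter threshold and both removals of several arrays. Lower were 3 among genes above the median level, 0 at the stricter threshold, 2 with low 3 and low 4 removed and 0 with the 3 Y-linked arrays removed. Leaving out single arrays gave 0 to 2 higher and 0 to 4 lower. The genes behind these counts were not always the same. Lpl, lower but not called on all arrays as deposited (limma, adjusted p = 0.0574), passed with array weights (0.0296) and the filter at the 25th percentile of level (0.0447). Retsat, at 0.179 on all arrays as deposited, passed as lower when read from its brightest row (0.0383). The labels do not say whether the replicate numbers pair the samples. Correlations of same-numbered deviations ran from -0.26 to 0.02, which shows no pairing but cannot exclude a shared batch. With the replicate numbers as a block 105 genes rose and 134 fell, with 0 of the 8 and, of the other retinoid genes, 0 higher and 1 lower, Dgat1. The causes were not tested.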
